A study of Homo sapiens with 6 samples.

Results

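Glycolysis turns glucose into pyruvate in the cytosol, and tumour cells often convert much of that pyruvate to lactate and export it. The pentose phosphate pathway branches off at glucose 6-phosphate and supplies NADPH and ribose 5-phosphate. Flow into both is set by glucose transporters, by hexokinase and by phosphofructokinase, whose activator fructose 2,6-bisphosphate is made and broken by the PFKFB enzymes. The 32 genes described here are transporters, glycolytic enzymes, PFKFB regulators and pentose phosphate enzymes, taken from the 58735 genes of the table by matching gene symbols to a list of these enzymes and transporters.

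The libraries came from A375 cells, a human malignant melanoma line, and fall into 2 groups of 3: PAL, cells treated with a Ringer's lactate solution that had been activated by low-temperature plasma, and control, cells without it. Both groups share the line, the column RNA extraction and the enrichment for poly-A RNA. The sample labels state neither dose nor exposure time, nor the solution given to control cells, nor whether replicates were separate cultures, and the table names its PAL columns with a number whose meaning is not explained. The p-values therefore cover library-to-library spread within a group, part of which may be technical. A single line was used, and in bulk RNA fewer cells holding a transcript and less of it per cell cannot be told apart. Assigned reads per library were 16053009 to 17711389 in PAL and 15064971 to 16081733 in control.

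Of 8 melanoma and melanocyte markers, 5 had a mean of at least 1 FPKM (fragments per kilobase of gene, scaled to library size), led by SOX10 at 108 ± 0.944 FPKM in PAL and 88.1 ± 1.68 in control (SD, n = 3 each). The pigment genes PMEL, MLANA and DCT were below that level, and MLANA was at 0 in all control libraries. All 4 markers of dedifferentiated melanoma were above it. Summed markers of keratinocytes, fibroblasts and immune cells were at 2.62 to 4.47 FPKM per list in PAL libraries and 3.56 to 4.97 in control libraries, those of endothelial cells at 0.0988 to 0.152 in PAL and 0.0855 to 0.135 in control. Most of the first sums came from 1 gene each: KRT14 (mean 2.87 in PAL, 3.80 in control), LUM (3.41 and 3.73) and LYZ (3.56 and 4.57). Those means lay between the melanoma markers TFAP2A (1.98 in PAL, 1.72 in control) and S100B (4.03 and 5.18), so only SOX10 stood well above them in that list. The stress-inducible chaperone gene HSPA6 stood at 20.7, 27.4 and 73.2 FPKM in PAL libraries, against 1999, 1960 and 1685 in control libraries. HSPA1A, another such gene, stood at 48.8, 51.7 and 95.4 FPKM in PAL libraries, against 1364, 1414 and 1379 in control libraries. Both were thus far higher in control. The groups were taken from the sample titles and column names alone. What lies behind this large difference, and its part in the results below, was not tested.

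Sequence upstream of 6 members is shown first, because HIF, the hypoxia factor named most often for glycolytic genes, binds sites with the core ACGTG or GCGTG. Each window is the 250 bases before the first transcript start that RefSeq lists for the gene (GRCh38.p14), written 5′ to 3′ on the strand of the gene, and capitals mark ACGTG or GCGTG on either strand. PGK1, HK2 and BPGM were lower in PAL, PFKFB4 and SLC2A1 were higher, and LDHA did not pass the test.
PGK1, chrX:78103998-78104247, plus strand: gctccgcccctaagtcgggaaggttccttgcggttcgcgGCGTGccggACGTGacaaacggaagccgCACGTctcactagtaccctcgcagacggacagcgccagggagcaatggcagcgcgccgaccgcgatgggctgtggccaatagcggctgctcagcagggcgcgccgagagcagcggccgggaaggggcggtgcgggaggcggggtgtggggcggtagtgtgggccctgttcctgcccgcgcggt
HK2, chr2:74833877-74834126, plus strand: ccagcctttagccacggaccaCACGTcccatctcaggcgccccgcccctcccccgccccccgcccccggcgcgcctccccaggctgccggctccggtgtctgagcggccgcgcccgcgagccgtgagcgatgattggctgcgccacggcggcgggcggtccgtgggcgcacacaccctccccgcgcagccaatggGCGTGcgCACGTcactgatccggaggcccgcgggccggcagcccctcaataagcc
BPGM, chr7:134646603-134646852, plus strand: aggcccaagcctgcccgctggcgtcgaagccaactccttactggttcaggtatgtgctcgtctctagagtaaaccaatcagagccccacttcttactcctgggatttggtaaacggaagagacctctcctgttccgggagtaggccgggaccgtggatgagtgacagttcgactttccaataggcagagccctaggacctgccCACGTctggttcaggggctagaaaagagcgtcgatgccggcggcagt
PFKFB4, chr3:48556804-48557053, minus strand: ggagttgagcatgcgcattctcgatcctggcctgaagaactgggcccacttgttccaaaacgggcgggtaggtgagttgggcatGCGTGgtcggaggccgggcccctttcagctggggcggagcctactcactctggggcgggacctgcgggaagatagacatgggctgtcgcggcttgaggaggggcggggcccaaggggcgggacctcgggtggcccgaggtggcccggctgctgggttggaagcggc
SLC2A1, chr1:42958869-42959118, minus strand: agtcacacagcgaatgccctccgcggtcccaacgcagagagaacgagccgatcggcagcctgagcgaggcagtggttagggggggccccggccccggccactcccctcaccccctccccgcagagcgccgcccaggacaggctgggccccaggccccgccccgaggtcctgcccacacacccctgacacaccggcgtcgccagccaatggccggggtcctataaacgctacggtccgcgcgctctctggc
LDHA, chr11:18394313-18394562, plus strand: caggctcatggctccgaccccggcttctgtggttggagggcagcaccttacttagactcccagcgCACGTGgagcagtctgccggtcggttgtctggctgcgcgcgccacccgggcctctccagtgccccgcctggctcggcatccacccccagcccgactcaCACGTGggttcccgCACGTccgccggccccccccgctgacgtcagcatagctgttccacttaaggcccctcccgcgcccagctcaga

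The LDHA window held 5 matches to ACGTG, of which 4 come from 2 copies of the palindrome CACGTG (the E-box), each read on both strands. PGK1 held 3 matches to both cores together, at 183, 202 and 211 bases before the start, and HK2 held 3, at 48, 55 and 229 bases. BPGM and PFKFB4 held 1 each and SLC2A1 held 0. Over the 29 members with a listed window, 16 (55.2%) held ACGTG or GCGTG, against 43.1% of the first-listed windows of 27305 genes. Among the members that were lower in PAL, 4 of the 6 with a window held a match, among those higher 1 of 2, and among those that did not pass 10 of 20. The lower members HK1 and TPI1, whose windows are not shown above, held 0. CACGTG was in 3 of the 29 windows (10.3%, against 6.49% of all) and GAANNTTC, a pair of heat shock element units, in 1 (3.45%, against 5.85%). A match is a run of letters and not a bound site, and SLC2A3, SLC16A1 and PFKFB2 were not matched in the table of windows.

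FPKM divides reads by gene length, which here equals the merged length of all annotated exons for 58724 of 58735 genes. This can exceed the length of the transcript expressed, by an amount that differs between genes, so levels of different members compare only roughly. Some glycolytic enzymes ranked among the most abundant transcripts. GAPDH, which oxidises glyceraldehyde 3-phosphate, was at 2075 ± 31.0 FPKM in PAL and 2006 ± 12.7 in control, rank 5 of 12258 tested genes. ENO1, the main enolase, held rank 30 and PKM, pyruvate kinase, rank 72, while HK2, PFKL and BPGM held ranks 2654, 5458 and 6020. The regulators PFKFB2, PFKFB3 and PFKFB4 lay between 1.15 and 15.0 FPKM in every library. The 32 members summed to 4689 ± 11.6 FPKM in PAL and 4707 ± 31.1 in control, and those sums overlapped between the groups (exact permutation p = 0.5, two-sided, where 0.1 is the smallest value possible with 3 against 3).

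**Figure D1:**
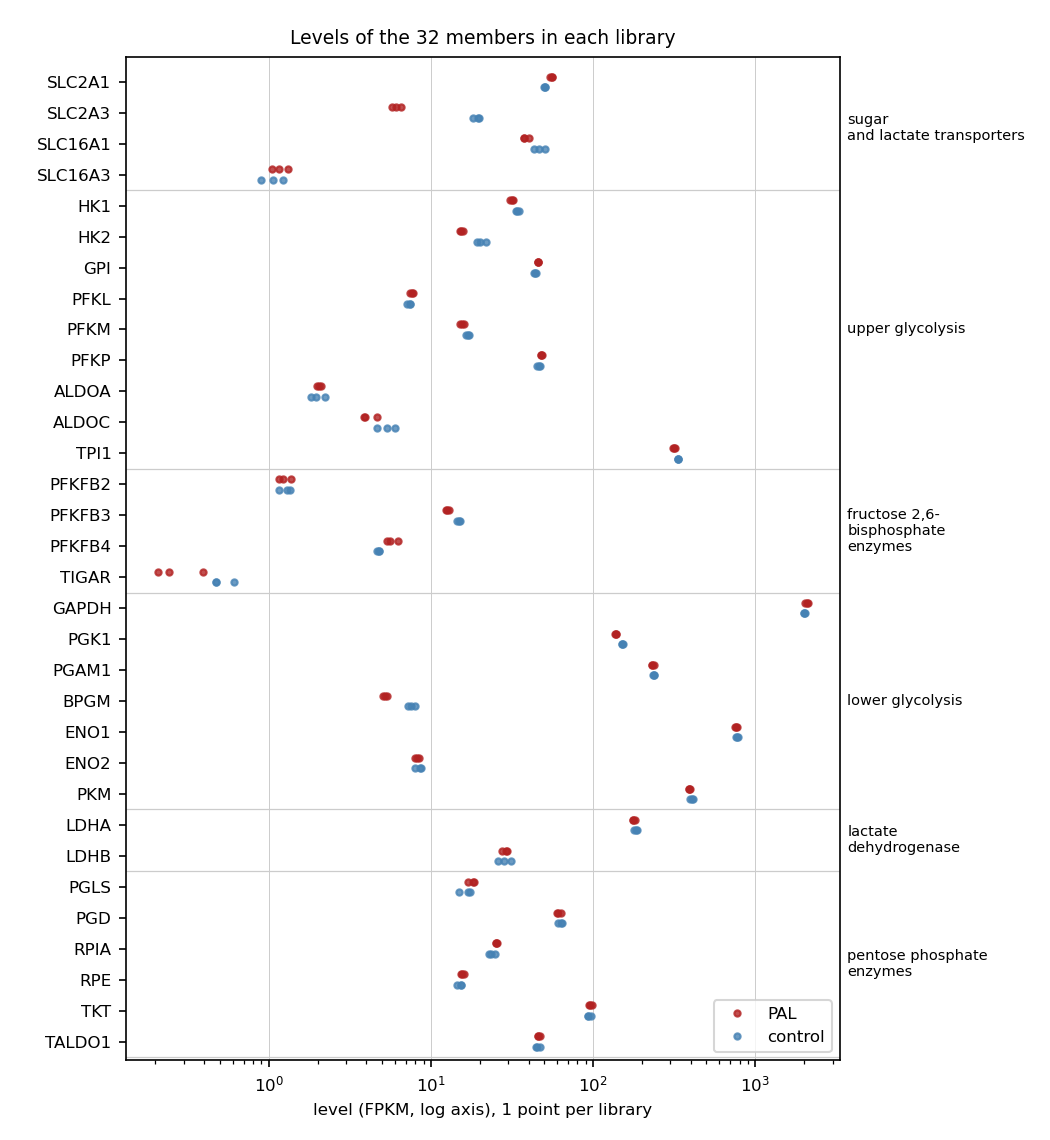
Level of each of the 32 members in FPKM on a log axis, 1 point per library, PAL (red) above control (blue), by role. GAPDH stands highest, between 1994 and 2102 FPKM, the PFKFB genes and SLC16A3 lie between about 1 and 15, and SLC2A3 shows the widest step between the groups.

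Setting PAL against control asks which of these transcripts differ with treatment. Among the members that passed the test, SLC2A3, BPGM, HK2 and SLC16A1 had the largest falls, and SLC2A1 and PFKFB4 rose. Limma on log2(FPKM + 1), two-sided, tested 12258 genes with at least 1 FPKM in at least 3 libraries, with p-values adjusted over all of them by the Benjamini-Hochberg method. TIGAR missed the filter, so 31 members were tested. At an adjusted p below 0.05, 10 of the 31 (32.3%) were called, against 25.9% of all genes tested. Of these 2 were higher and 8 lower, where 11.4% of all genes were higher and 14.5% lower. The groups did not overlap for 17 of the 31 (54.8%), against 44.9% of all genes. The median log2 difference, PAL minus control, was -0.02 over the members and 0.00430 over all genes, and 24 of the 31 members differed by less than 0.15. The counts moved with the scaling: 7 were higher and 5 lower as TPM or after quantile normalization, and 10 higher and 5 lower when libraries were scaled by plain read totals. Over all genes the share of rises among calls was 44.0% as deposited, 67.9% as TPM, 59.2% after quantile normalization and 73.4% with plain totals. Without PAL replicate 1 or PAL replicate 2 the count of lower members was 5, and the count of higher members was 1 without PAL replicate 2 or 3 or without any 1 of the control libraries.

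**Figure D2:**
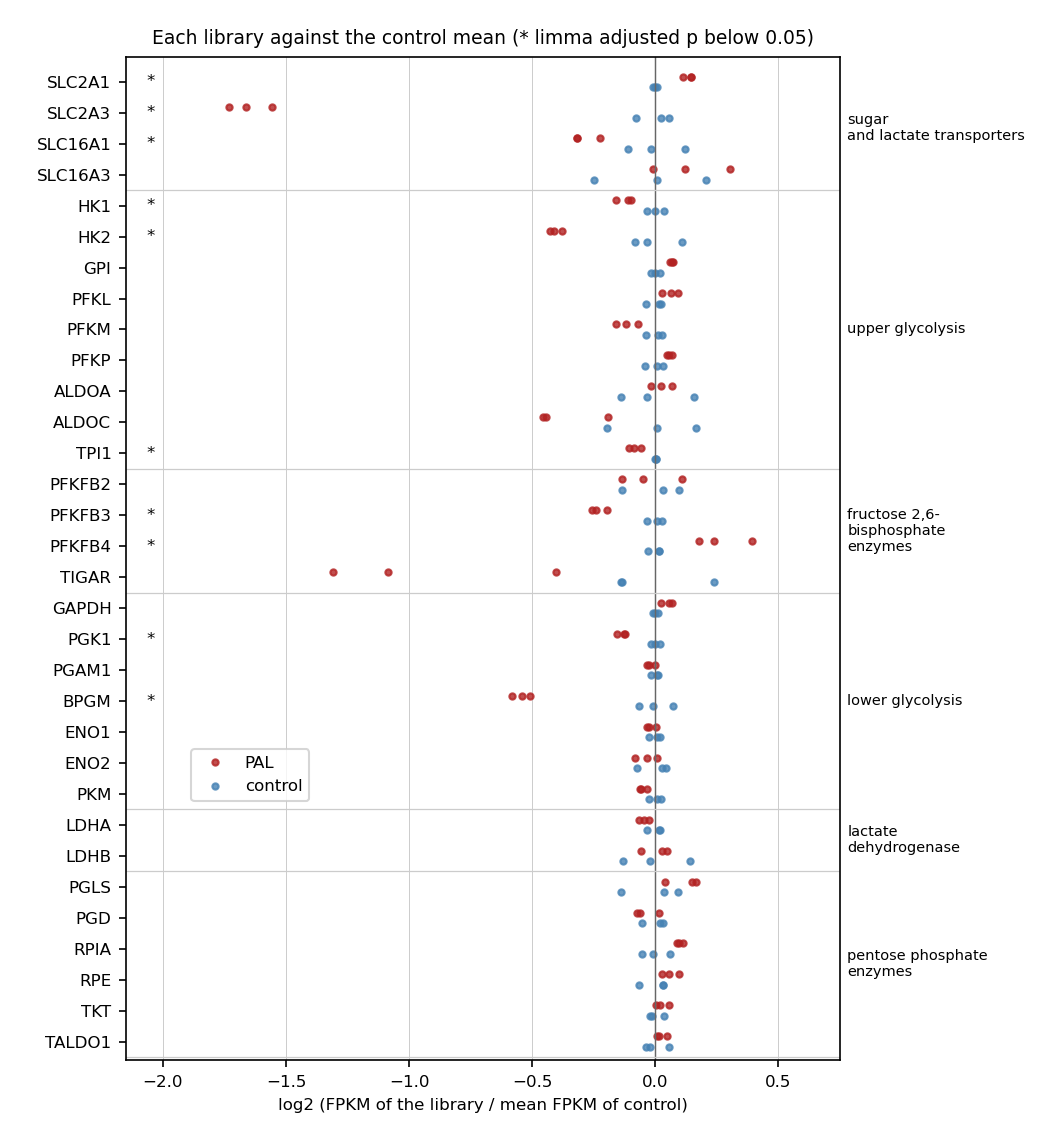
Log2 of each library's FPKM over the control mean, 1 point per library, PAL (red) above control (blue); a star marks an adjusted p below 0.05 in limma. PAL libraries of SLC2A3 stand farthest left, followed by those of TIGAR, which was not tested; those of HK2 and BPGM lie left of their control libraries, and the pentose phosphate enzymes lie around 0.

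Among the glucose transporters, the 2 main genes moved apart. SLC2A3 encodes GLUT3, a high-affinity transporter best known from neurons (ENSG00000059804, hg38 chr12:7919230-7936275). It was at 5.77, 6.05 and 6.50 FPKM in PAL replicates 1 to 3, against 19.4, 19.9 and 18.1 in control replicates 1 to 3. The highest PAL value was far under the lowest control value. Its mean was 3.14-fold lower in PAL, a fall of 1.50 ± 0.05 (SE) on the log2(FPKM + 1) scale, which understates changes of low genes (adjusted p = 1.27e-05).

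SLC2A1 encodes GLUT1, the widespread glucose transporter of proliferating cells (ENSG00000117394, chr1:42925375-42959176). It was at 55.5, 55.5 and 54.4 FPKM in PAL libraries, against 50.3, 50.01 and 50.6 in control libraries, so that the groups were narrow and did not overlap. The log2 difference was 0.13 ± 0.02 (adjusted p = 0.00836). As a share of the FPKM of both transporters, SLC2A3 made up 9.97% ± 0.647 in PAL and 27.6% ± 1.06 in control (exact permutation p = 0.1, the smallest possible). This share does not depend on how libraries are scaled, and the sum of both was 61.3 ± 0.360 FPKM in PAL and 69.5 ± 0.638 in control. SLC2A14, a near copy of SLC2A3, was at 0.0611 FPKM in PAL and 0.205 in control, and reads that fit both genes could have been split or dropped.

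The lactate exporters differed in level. SLC16A1 encodes MCT1, which carries lactate in both directions (ENSG00000155380, chr1:112911847-112957013). It was at 37.5, 37.5 and 40.0 FPKM in PAL libraries, against 43.3, 46.1 and 50.8 in control libraries. Its control values spread over more than 7 FPKM, yet all lay above the PAL values. It fell by 0.28 ± 0.06 on the log2 scale (adjusted p = 0.0161), but the adjusted p was 0.0557 when PAL replicate 1 was left out, 0.0602 when PAL replicate 2 was, and 0.0562 with no filter. Over all 18 alternatives the adjusted p was 2.68e-04 to 0.0602. SLC16A3 encodes MCT4, the low-affinity exporter of hypoxic and glycolytic cells, and was near the filter at 1.17 ± 0.128 FPKM in PAL and 1.06 ± 0.164 in control, with overlapping libraries (adjusted p = 0.572). BSG, the chaperone that brings both to the membrane, was at 165 ± 2.56 FPKM in PAL and 161 ± 3.15 in control (adjusted p = 0.307).

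Of the hexokinases, which phosphorylate glucose on entry, both HK2 and HK1 were called lower as deposited. HK2, the inducible form (ENSG00000159399, chr2:74833981-74893359), was at 15.2, 15.3 and 15.7 FPKM in PAL libraries, against 19.2, 19.9 and 22.0 in control libraries. The PAL libraries lay within 1 FPKM of each other and under all control libraries. HK2 fell by 0.38 ± 0.05 on the log2 scale (adjusted p = 0.00270).

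HK1, the constitutive form (ENSG00000156515, chr10:69269984-69401884), was at 30.6, 31.96 and 31.6 FPKM in PAL libraries, against 35.0, 34.1 and 33.4 in control libraries. It fell by 0.12 ± 0.03 (adjusted p = 0.0299), but the call was lost in 12 of 18 alternatives, over a range of 0.00866 to 0.392. The log2 difference was -0.05 as TPM (adjusted p = 0.297), -0.09 after quantile normalization (0.0664) and -0.04 with plain totals (0.392). Leaving out PAL replicate 1, 2 or 3 gave adjusted p-values of 0.0994, 0.0600 and 0.0659, and leaving out control replicate 1 or 2 gave 0.0883 and 0.0768. HK2 made up 32.9% ± 0.397 of both hexokinases in PAL and 37.3% ± 2.14 in control, with no overlap (exact permutation p = 0.1).

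Among the later steps of upper glycolysis, TPI1 was called. TPI1, triose phosphate isomerase (ENSG00000111669, chr12:6867119-6870948), was at 321, 311 and 315 FPKM in PAL libraries, against 335, 333 and 334 in control libraries. It fell by 0.08 ± 0.02 on the log2 scale as deposited (adjusted p = 0.0297), and its sign turned after quantile normalization (0.00977) and with plain read totals (0.00271). The call was lost in each fit without 1 library (adjusted p = 0.0513 to 0.0897) and in 13 of 18 alternatives in all, over a range of 0.00872 to 0.938. Its processed pseudogene TPI1P1 held 14.2 FPKM, so part of the reads may be shared.

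GPI, which converts glucose 6-phosphate to fructose 6-phosphate, averaged 45.8 ± 0.191 FPKM in PAL and 43.8 ± 0.566 in control (adjusted p = 0.0846). It passed as higher as TPM (adjusted p = 0.0105), after quantile normalization (0.0235), with plain totals (0.00450) and with voom (0.0484), and its adjusted p spanned 0.00450 to 0.206 in all. Phosphofructokinase commits sugar to glycolysis and is encoded by 3 members. PFKP, the platelet type, was at 48.0 ± 0.365 FPKM in PAL and 46.1 ± 1.16 in control (adjusted p = 0.179), PFKM, the muscle type, at 15.5 ± 0.499 FPKM in PAL and 16.8 ± 0.383 in control (adjusted p = 0.0646), and PFKL, the liver type, at 7.63 ± 0.174 FPKM in PAL and 7.32 ± 0.158 in control (adjusted p = 0.342). None of these passed as deposited. PFKP passed as higher as TPM (adjusted p = 0.0174), after quantile normalization (0.0367) and with plain totals (0.00849, range 0.00849 to 0.409), PFKL as higher with plain totals (adjusted p = 0.0361, range 0.0361 to 0.588) and PFKM as lower with voom (adjusted p = 0.0298, range 0.0298 to 0.566). The share of PFKM in the step was 21.8% ± 0.523 in PAL and 24.0% ± 0.262 in control and that of PFKP 67.4% ± 0.312 in PAL and 65.6% ± 0.310 in control (exact permutation p = 0.1 for each). The summed FPKM of the step was 71.1 ± 0.789 in PAL and 70.3 ± 1.44 in control.

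Aldolase splits fructose 1,6-bisphosphate, and the level listed for its main gene is uncertain. ALDOA was listed at 2.03 ± 0.0600 FPKM in PAL and 2.00 ± 0.211 in control, rank 9875 of 12258, between neighbours in the pathway at 48.0 FPKM (PFKP) and 316 FPKM (TPI1) in PAL. In GENCODE 29 the gene AC093512.2 on the same strand covers 93.8% of the coding bases of ALDOA, and it was listed at 0.628 ± 0.211 FPKM in PAL and 0.463 ± 0.0308 in control. No source used here states how reads in shared exons were assigned, and their part in this level was not tested. LDHB shares 93.5% of its coding bases with AC010197.2 and TIGAR 96.0% with AC008012.1 in the same way, so the levels of these 3 members are uncertain. ALDOC, the brain-type aldolase, was at 3.92, 3.89 and 4.67 FPKM in PAL libraries, against 5.98, 4.66 and 5.36 in control libraries. PAL replicate 3 overlapped control replicate 2, and the difference did not pass (-0.29 ± 0.09, adjusted p = 0.0592). It passed without PAL replicate 3 (adjusted p = 0.0432), without control replicate 2 (adjusted p = 0.0387), with voom (limma's model of read counts) on recovered reads (adjusted p = 0.0229) and over protein-coding genes only (adjusted p = 0.0262), over a range of 0.0229 to 0.167.

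Summed over its 9 members, upper glycolysis stood at 486 ± 3.52 FPKM in PAL and 510 ± 3.51 in control, a difference of -4.82% with no overlap (exact permutation p = 0.1). The same difference was -0.00358% as TPM and 0.993% with plain totals, so its direction depended on the scaling.

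The main PFKFB regulators, PFKFB3 and PFKFB4, moved in opposite directions. PFKFB3, whose kinase activity prevails (ENSG00000170525, chr10:6144934-6254644), was at 12.9, 12.3 and 12.5 FPKM in PAL libraries, against 14.4, 15.0 and 14.8 in control libraries. It fell by 0.22 ± 0.03 on the log2 scale (adjusted p = 0.00526).

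PFKFB4 (ENSG00000114268, chr3:48517684-48562015) was at 5.38, 5.61 and 6.24 FPKM in PAL libraries, against 4.66, 4.80 and 4.80 in control libraries, and rose by 0.23 ± 0.06 (adjusted p = 0.0272). Every PAL library was above every control library, but the call was lost in 8 of 18 alternatives, over a range of 0.00761 to 0.0835. Leaving out PAL replicate 2 or 3 gave adjusted p-values of 0.0676 and 0.0591, and leaving out control replicate 1, 2 or 3 gave 0.0749, 0.0686 and 0.0531. The neighbouring gene UCN2 shares 289 exon bases with PFKFB4 on the same strand and was also higher, at 9.32 ± 0.572 FPKM in PAL and 6.89 ± 0.606 in control (adjusted p = 0.00777).

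Within the PFKFB genes, PFKFB4 made up 29.4% ± 1.71 of the FPKM in PAL and 22.9% ± 0.208 in control. PFKFB3 made up 64.3% ± 1.99 in PAL and 71.0% ± 0.193 in control (exact permutation p = 0.1 for both shares). PFKFB2, the form best known from heart, was low, at 1.25 ± 0.108 FPKM in PAL and 1.26 ± 0.102 in control (adjusted p = 0.917). TIGAR, a p53-induced phosphatase that lowers fructose 2,6-bisphosphate, was at 0.244, 0.209 and 0.392 FPKM in PAL libraries, from 18, 14 and 29 reads, against 0.472, 0.471 and 0.611 in control libraries, from 30, 28 and 38 reads. The groups did not overlap, but with no filter the difference did not pass (adjusted p = 0.149).

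**Figure D3:**
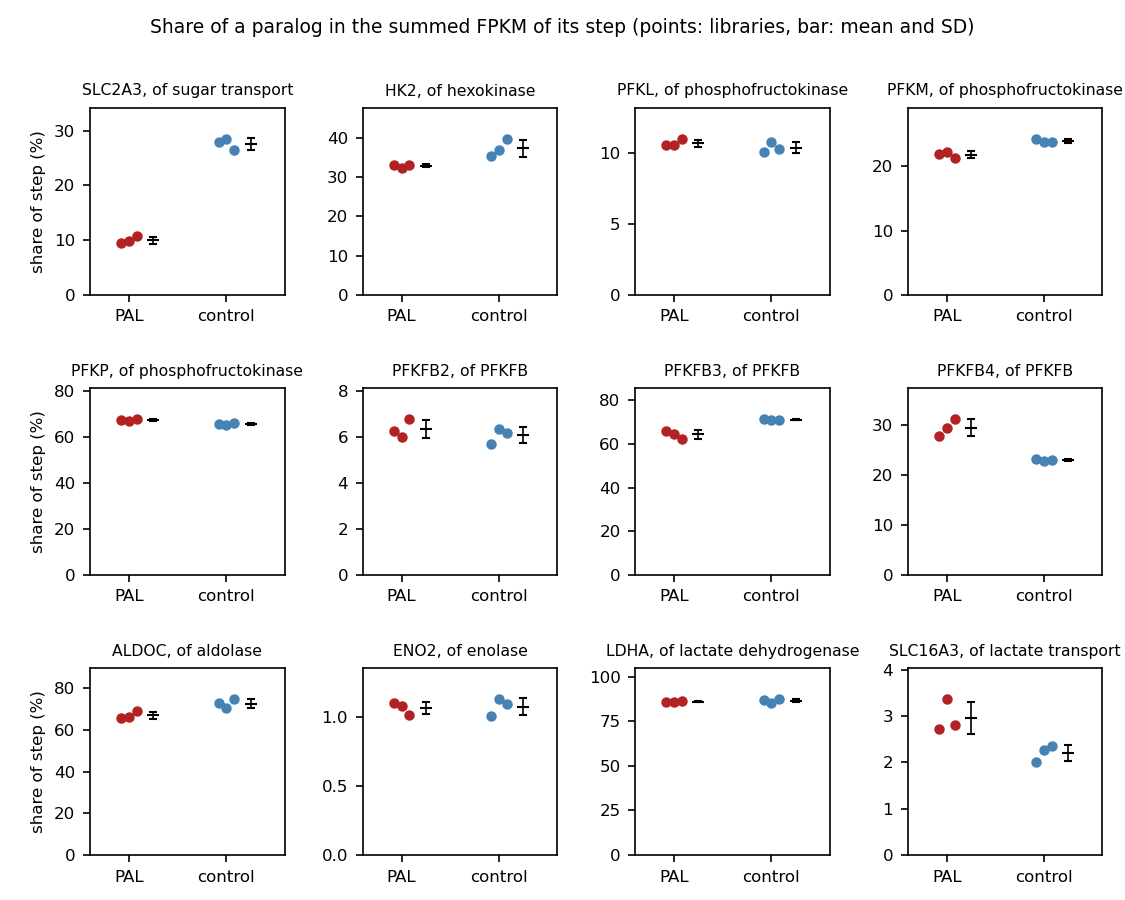
Share of a paralog in the summed FPKM of its step in percent, PAL (red) left of control (blue), 1 point per library, with mean and SD. SLC2A3 drops to about 10% in PAL, against about 28% in control, and the shares of PFKFB3 and PFKFB4 move in opposite directions; those of ENO2 and LDHA overlap between groups.

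In lower glycolysis 2 of 7 members fell, BPGM and PGK1, and the other 5 were not called (28.6% called, against 25.9% of all genes tested). BPGM makes 2,3-bisphosphoglycerate, the red cell regulator of oxygen release, and so bypasses a step of the main route (ENSG00000172331, chr7:134646808-134679813). It was at 5.20, 5.05 and 5.32 FPKM in PAL libraries, against 7.51, 7.23 and 7.96 in control libraries, with a clear gap between the groups. It fell by 0.47 ± 0.05 on the log2 scale (adjusted p = 8.87e-04).

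PGK1, phosphoglycerate kinase, the first ATP-making enzyme of the pathway (ENSG00000102144, chrX:77910739-78129296), was at 139, 136 and 139 FPKM in PAL libraries, against 150, 151 and 154 in control libraries. It fell by 0.14 ± 0.02 as deposited (adjusted p = 0.00594). The adjusted p was 0.0927 as TPM, 0.225 after quantile normalization and 0.115 with plain totals. The call held in each fit that left out 1 library, and the adjusted p spanned 2.10e-04 to 0.225 in all.

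GAPDH, in use as a reference gene in many assays, did not pass as deposited (0.05 ± 0.02, adjusted p = 0.132), although its libraries did not overlap. It passed as higher with voom on recovered reads (adjusted p = 0.0170), as TPM (0.00777) and with plain totals (0.00448), and its adjusted p spanned 0.00448 to 0.592 in all. AC006064.4, an antisense gene that overlaps 422 exon bases of GAPDH, was at 470, 469 and 406 FPKM in PAL libraries, against 303, 358 and 372 in control libraries (0.38 ± 0.09, adjusted p = 0.0211). Whether the counting used strand is not given, so reads of the overlap cannot be told apart.

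PKM was at 392 ± 4.45 FPKM in PAL and 406 ± 6.97 in control (adjusted p = 0.142), and passed as lower with voom (adjusted p = 0.0306, range 0.0306 to 0.603). PGAM1, phosphoglycerate mutase, was at 233 ± 2.90 FPKM in PAL and 236 ± 2.80 in control (adjusted p = 0.541), and the neuronal enolase ENO2 at 8.18 ± 0.247 FPKM in PAL and 8.38 ± 0.373 in control (adjusted p = 0.642). ENO1 was at 763 ± 10.8 FPKM in PAL and 773 ± 12.1 in control (adjusted p = 0.578), and passed as higher after quantile normalization alone (0.13, adjusted p = 0.0274, range 0.0274 to 0.838). The 95% intervals of the log2 differences of GAPDH, PGAM1, ENO1, ENO2 and PKM lay between -0.14 and 0.10.

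Lactate dehydrogenase, which converts pyruvate and lactate into each other, did not pass. LDHA, the muscle-type subunit, was at 180, 175 and 177 FPKM in PAL libraries, against 186, 185 and 179 in control libraries (-0.05 ± 0.02, adjusted p = 0.206). LDHB, the heart-type subunit, was at 28.6 ± 1.11 FPKM in PAL and 28.5 ± 2.70 in control (adjusted p = 0.929). LDHA made up 86.1% ± 0.456 of both in PAL and 86.6% ± 0.948 in control, with overlapping libraries (exact permutation p = 0.6).

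None of the 6 pentose phosphate enzymes was called as deposited, where 25.9% of all genes were (1 had an unadjusted p below 0.05). With voom 0 of the 6 were called, where 31.8% of all genes tested were. In the oxidative branch, the lactonase PGLS was at 17.8 ± 0.840 FPKM in PAL and 16.4 ± 1.35 in control (adjusted p = 0.222). PGD, 6-phosphogluconate dehydrogenase, which makes NADPH, was at 61.3 ± 2.08 FPKM in PAL and 63.0 ± 1.99 in control (adjusted p = 0.468). Both overlapped between the groups.

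In the branch that makes and shuffles pentoses, RPIA, ribose 5-phosphate isomerase, was at 25.2, 25.6 and 25.3 FPKM in PAL libraries, against 22.9, 24.7 and 23.6 in control libraries. It was the 1 pentose phosphate gene of 6 whose groups did not overlap (16.7%, against 44.9% of all genes tested). The log2 difference of RPIA was 0.09 ± 0.03 (adjusted p = 0.0863). The epimerase RPE was at 15.7 ± 0.394 FPKM in PAL and 15.1 ± 0.573 in control (adjusted p = 0.324). TKT, transketolase, was at 96.2 ± 1.87 FPKM in PAL and 94.5 ± 2.03 in control (adjusted p = 0.517), and TALDO1, transaldolase, at 46.3 ± 0.705 FPKM in PAL and 45.5 ± 1.56 in control (adjusted p = 0.626). The 95% intervals of the 6 log2 differences lay between -0.12 and 0.26. With plain read totals, RPIA, RPE, TKT and TALDO1 passed as higher (adjusted p = 0.00880, 0.0358, 0.0166 and 0.0392), and RPIA and TKT also did as TPM or after quantile normalization. Summed, the 6 genes stood at 263 ± 3.53 FPKM in PAL and 258 ± 1.98 in control (exact permutation p = 0.2).

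**Figure D4:**
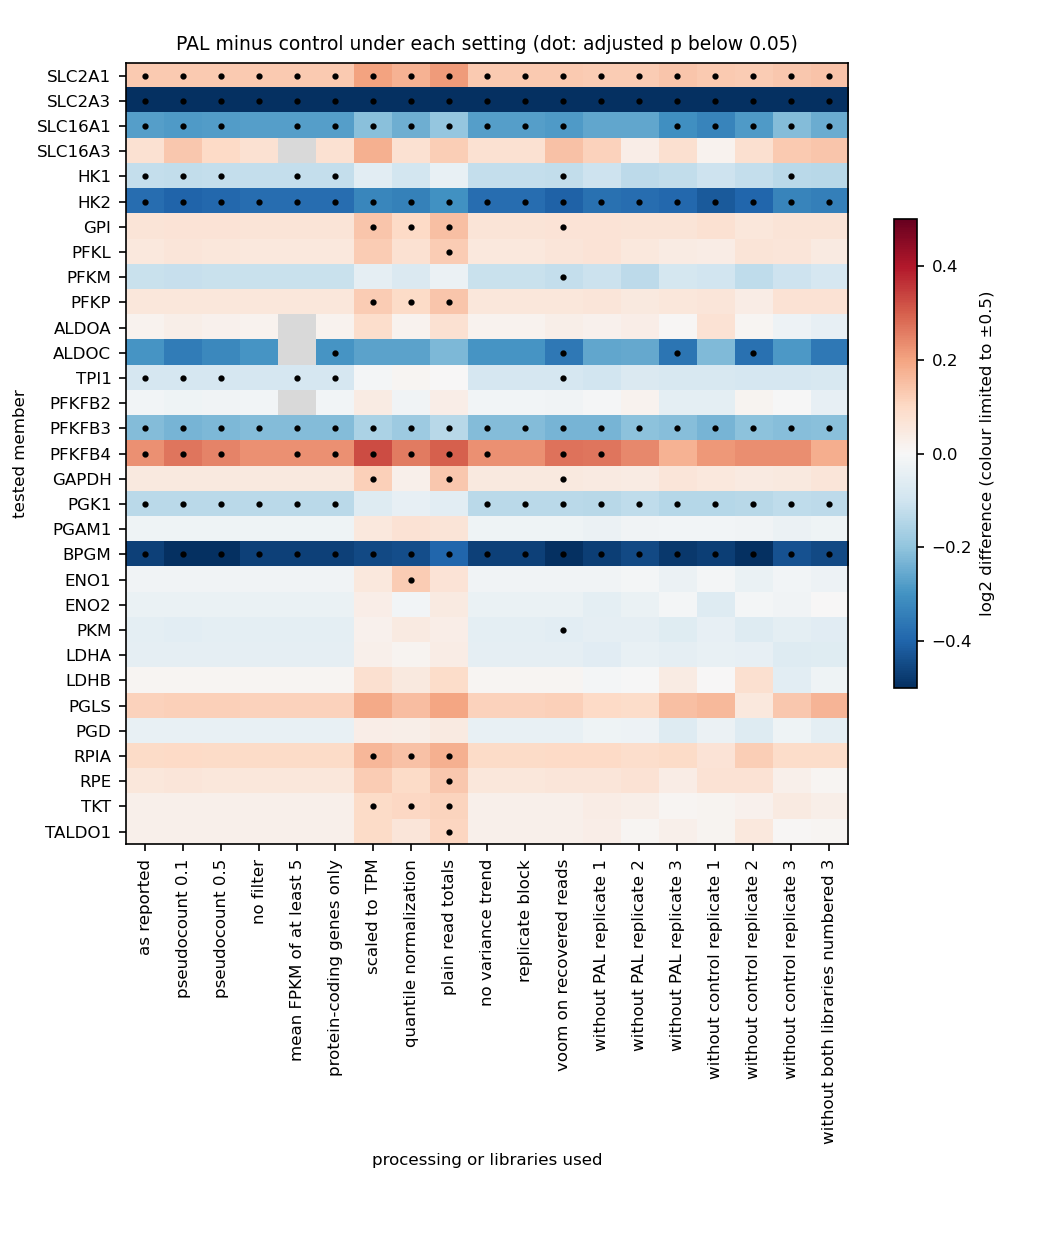
Log2 difference, PAL minus control, of the 31 tested members (rows) under each processing or choice of libraries (columns); red is higher and blue lower in PAL, a dot marks an adjusted p below 0.05, and grey was not tested. The dots of SLC2A1, SLC2A3, HK2, PFKFB3 and BPGM run through all columns, while the red tint of TPM, quantile and plain totals columns shows the shift that scaling brings.

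Genes around the pathway were read from 8 lists of 108 genes, chosen with earlier results of these data known, of which 73 were tested. Of these 2 were higher and 17 lower (26.0% called, against 25.9% of all genes), and the counts were 10 higher and 12 lower as TPM, and 13 higher and 10 lower with plain totals. The hexosamine and UDP-sugar branch uses fructose 6-phosphate and UDP-glucose for glycan building blocks. Here 6 of 12 were lower and 1 higher (58.3% called, against 25.9% of all genes tested). UGDH, which makes UDP-glucuronic acid, was at 9.76 ± 0.491 FPKM in PAL and 17.6 ± 1.48 in control (adjusted p = 3.60e-04), and UAP1, which makes UDP-N-acetylglucosamine, at 56.1 ± 1.98 FPKM in PAL and 71.7 ± 4.44 in control (adjusted p = 0.00377). OGT, the O-GlcNAc transferase, rose by 0.18 ± 0.04 (adjusted p = 0.0238).

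Where pyruvate enters mitochondria, 2 of 14 tested genes were lower and 0 higher (14.3% called, against 25.9% of all genes tested). Of all genes tested, 14.5% were lower and 11.4% higher. PDK4, a kinase that switches off pyruvate dehydrogenase, was at 1.43 ± 0.0885 FPKM in PAL and 6.41 ± 0.551 in control (-1.61 ± 0.07, adjusted p = 2.47e-05), and MPC2, a subunit of the mitochondrial pyruvate carrier, at 13.2 ± 0.658 FPKM in PAL and 15.8 ± 0.416 in control (adjusted p = 0.00925). In glycogen and glucose 1-phosphate metabolism 3 of 11 were lower and 1 higher (36.4% called, against 25.9% of all genes tested). UGP2 and PGM1 fell by 0.21 ± 0.04 and 0.19 ± 0.04 (adjusted p = 0.0158 and 0.0177), and the glucose 6-phosphatase G6PC3 rose by 0.20 ± 0.04 (adjusted p = 0.0127). Among genes of pentose salvage, ribose use and NADPH, 2 of 12 were lower and 0 higher (16.7% called, against 25.9% of all genes tested). IDH1, a cytosolic source of NADPH, fell by 0.30 ± 0.04 (adjusted p = 0.00240) and NNT, a mitochondrial enzyme that makes NADPH from NADH, by 0.16 ± 0.03 (adjusted p = 0.00953).

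Of 8 tested regulators of the pathway, 4 were lower and 0 higher (50% called, against 25.9% of all genes tested). The largest falls were those of ARRDC4 and TXNIP, arrestin-domain proteins that reduce glucose uptake. ARRDC4 was at 0.715 ± 0.0632 FPKM in PAL and 3.27 ± 0.204 in control (adjusted p = 4.59e-05), and TXNIP at 2.79 ± 0.304 FPKM in PAL and 5.31 ± 1.26 in control (adjusted p = 0.0136). The other called regulators, MYC and HIF1A, are named here after their values were seen. MYC was at 10.3 ± 0.723 FPKM in PAL and 14.0 ± 1.75 in control (-0.40 ± 0.09, adjusted p = 0.0167). HIF1A, the oxygen-regulated subunit of HIF, was at 51.6 ± 0.531 FPKM in PAL and 60.3 ± 2.40 in control (-0.22 ± 0.03, adjusted p = 0.00477). In the other 3 lists, of the glycerol 3-phosphate branch, other transporters and other isoenzymes, limma called 0 of 16 tested genes, against 25.9% of all genes. In these 3 lists, 3 genes had an unadjusted p below 0.05. Voom on recovered reads called 31.8% of all genes tested, and 2 genes of these 3 lists. Their most abundant members were GPAT3 and PGP of the glycerol branch, at 43.6 ± 0.474 and 16.5 FPKM in PAL and 42.2 ± 2.42 and 14.4 in control, the transporter gene SLC50A1 after BSG, at 12.8 in PAL and 11.4 in control, and the isoenzyme genes ENO3 and ADPGK, at 13.4 and 11.5 in PAL and 11.7 and 11.4 in control.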

How the data were processed

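RNA-seq of A375 cells gave 1 table of FPKM values per gene, deposited by the authors, for 3 PAL and 3 control libraries; hg38 is the build per the submitters' processing notes, and no source used here names the aligner, the counting rule or its strand setting. Gene positions equal those of GENCODE 29 for 58724 of 58735 genes. Once gene length and the size of each library, recovered from the lowest steps, were multiplied back in, FPKM gave whole reads for 100% of values (within 0.01 reads). The library size behind the FPKM was 1.04 to 1.05 times the assigned reads in PAL and 0.980 to 0.984 times in control, so the authors' scaling differs from plain totals. Limma 3.58.1 (R 4.3.3) with a variance trend was fitted to log2(FPKM + 1) of 12258 genes with at least 1 FPKM in at least 3 libraries, and tested on simulated data first. Shares and sums were compared by exact permutation (scipy 1.17.1), and figures drawn with matplotlib 3.10.9. Alternatives were other pseudocounts, filters and scalings, no trend, a replicate block, voom on the recovered reads, and each library left out.

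The members and the lists of related genes were chosen with earlier results of these data known. All 32 members are named. Of each related list, up to 2 of the largest rises and 2 of the largest falls among called genes are named, or the 2 most abundant genes where none was called. Among the regulators, MYC and HIF1A are named in addition. Same-numbered PAL and control libraries did not deviate together, so numbers were not used as pairs. Promoter windows come from RefSeq (GRCh38.p14) and were matched by symbol for 29 of 32 members. The downstream part of 26 of these windows was found in a GENCODE 29 transcript on the same strand.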

Additional observations from a re-analysis of the deposited data

How the results depend on the processing

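SLC2A1, SLC2A3, HK2, PFKFB3 and BPGM kept their direction and call in all 18 alternatives, and 9 of the 21 uncalled members were called in none. The count of lower members, 8 as reported, was 5 with no filter, as TPM, after quantile normalization and with plain read totals, 11 with voom, 9 over protein-coding genes only, and 5 to 7 with 1 library left out. The count of higher members, 2 as reported, was 1 with no filter, 7 as TPM, 7 after quantile normalization, 10 with plain totals, 4 with voom, 1 without both libraries numbered 3 and 1 to 2 with 1 library left out. With the replicate number as a block it was 1, and 6 members were lower. Same-numbered libraries correlated at -0.02, 0.03 and -0.04 in their deviations. These values show no shared deviation, but the labels do not say whether same-numbered libraries were handled together. Over all genes the block left 2131 calls, against 3179 as reported, and the other alternatives gave 1855 (without PAL replicate 2) to 4219. Related genes, 2 higher and 17 lower as reported, were 10 higher as TPM, 13 higher and 10 lower with plain totals, and 5 higher and 21 lower with voom.

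Signs that turned among weak log2 differences were as follows. As TPM, PFKFB2 gave 0.0397, PGAM1 0.0512, ENO1 0.0522, ENO2 0.0347, PKM 0.0203, LDHA 0.0244 and PGD 0.0322. After quantile normalization, TPI1 gave 0.00977, PGAM1 0.0708, ENO1 0.128, PKM 0.0437, LDHA 0.0154 and PGD 0.0312. With plain totals, PFKFB2 gave 0.0349, TPI1 0.00271, PGAM1 0.0653, ENO1 0.0665, ENO2 0.0448, PKM 0.0345, LDHA 0.0386 and PGD 0.0460. Without both libraries numbered 3, ALDOA gave -0.0398, ENO2 0.00164 and LDHB -0.0205. With 1 library left out, PFKFB2 ranged over -0.0502 to 0.0174, ALDOA over -0.0252 to 0.0737 and LDHB over -0.0514 to 0.0790.

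Summed levels moved with scaling. As TPM and with plain totals the percent differences were -9.69 and -8.80 for transporters (-14.0 as reported), -0.00358 and 0.993 for upper glycolysis (-4.82), -2.14 and -1.18 for fructose 2,6-bisphosphate enzymes (-6.86), 5.79 and 6.85 for lower glycolysis (0.705), 2.22 and 3.24 for lactate dehydrogenase (-2.70) and 6.90 and 7.96 for the pentose phosphate enzymes (1.76). The share of SLC2A3 differed by -17.6 percentage points as reported, -20.6 in reads and -18.5 without both libraries numbered 3. That of SLC16A3 differed by 0.755, and by 1.23 in reads. That of ALDOC differed by -5.60, and by -0.925 with processed pseudogenes. Apart from what scaling and fewer libraries do by construction, the cause was not tested. TIGAR had 14 to 38 reads per library, so counting error is large for it.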

Other observations

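As a share of all FPKM of a library, the 32 members held 1.79% ± 0.0153 in PAL and 1.71% ± 0.0159 in control (SD, n = 3 each), with no overlap (exact permutation p = 0.1, the smallest possible), while their summed FPKM as deposited differed by -0.390% (PAL against control). GAPDH made up 44.3% ± 0.565 of the members' FPKM in PAL and 42.6% ± 0.0629 in control. Of 62 processed pseudogenes of GAPDH, the sum was 13.5 FPKM in PAL and 11.6 in control. In the exon overlap table, 20 of the 32 members share bases with another gene. YOD1, which overlaps PFKFB2, had a log2 difference of -0.62 ± 0.07 (adjusted p = 0.00171, limma), and AC093512.1, antisense to ALDOA, was higher by 0.53 ± 0.15 (adjusted p = 0.0397, limma).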
